A study of Mus musculus with 18 samples.

Results

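Primary (azurophil) granules are the storage organelles that neutrophil precursors build before any others, and 5 genes that mark this step were followed here: Mpo, Elane, Prtn3, Ctsg and Ms4a3. They were taken by symbol from a table of 36655 gene symbols, in which each of the 5 has 1 entry, and were read in all 18 libraries. The libraries came from C57BL/6 all-iPS mice, animals derived wholly from induced pluripotent stem cells, whose genome carries Oct4, Sox2, Klf4 and c-Myc under doxycycline control. Every group shares this transgene background, controls included. The D libraries (2D and 4D) are from haematopoietic stem cells of the long-term (LT-HSC) and short-term (ST-HSC) kinds, myeloid progenitors (MP) and fibroblasts given doxycycline in culture for 2 or 4 days, which switches the 4 factors on. The N libraries (2N and 4N) are from the 3 blood cell types cultured for the same times without it, and the uncultured libraries (day 0) are from all 4 cell types. The doxycycline field of the 6 N libraries reads yes, against their titles and the stated design, and the titles were followed. Each blood library was made from 25 hand-picked cells by poly(T) priming and 20 plus 9 cycles of PCR, whereas fibroblast RNA took the standard Illumina route. There was 1 library per cell type and condition, so tests below treat cell types, days or conditions as replicates of each other, and their p-values measure that spread only.

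Neutrophil precursors switch on the primary granule genes at the promyelocyte stage, in response to transcription factors that include PU.1, C/EBP proteins, Myb, Gfi1 and Runx1, and switch them off again before the genes of later granules come on. Myeloperoxidase (Mpo) makes hypochlorous acid. Neutrophil elastase (Elane), proteinase 3 (Prtn3) and cathepsin G (Ctsg) are serine proteases that are stored active, and Ms4a3 is a 4-pass membrane protein of granulocyte and monocyte precursors that does not belong to the stored cargo.

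The promoters of the 3 most abundant members are shown because a purine-rich motif bound by PU.1, one of the regulators whose level is given below, was searched in them. Each line holds the 250 bases before the RefSeq start site (mouse build GRCm38.p6, plus strand, 5′ to 3′): Prtn3 at chr10:79879417-79879666, Elane at chr10:79886062-79886311 and Mpo at chr11:87793534-87793783. Capitals mark GAGGAA.

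Prtn3: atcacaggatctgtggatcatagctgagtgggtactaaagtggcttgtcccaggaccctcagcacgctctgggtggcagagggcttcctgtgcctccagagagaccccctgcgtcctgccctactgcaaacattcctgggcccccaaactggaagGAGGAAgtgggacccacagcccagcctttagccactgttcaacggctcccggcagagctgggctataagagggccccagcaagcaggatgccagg

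Elane: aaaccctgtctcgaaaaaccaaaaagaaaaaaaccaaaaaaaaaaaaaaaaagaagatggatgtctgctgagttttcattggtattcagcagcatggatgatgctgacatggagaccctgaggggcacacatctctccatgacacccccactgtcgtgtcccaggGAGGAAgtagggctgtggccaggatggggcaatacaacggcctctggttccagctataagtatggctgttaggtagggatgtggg

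Mpo: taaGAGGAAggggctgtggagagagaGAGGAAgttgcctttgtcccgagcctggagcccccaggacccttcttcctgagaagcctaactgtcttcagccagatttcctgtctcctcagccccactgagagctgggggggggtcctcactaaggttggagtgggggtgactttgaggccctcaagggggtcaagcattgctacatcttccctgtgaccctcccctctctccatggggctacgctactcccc

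The motif GAGGAA, read on both strands, lay in the 300-base window (250 before the start site and 50 after) of 5 of 5 members, and in 28.3% of 32851 RefSeq promoter windows of the same length. Its first base was 95 bases before the start site in Prtn3, 85 before it in Elane and 216 before it in Ctsg. Mpo held it at 247 and 224 bases before the start site, and Ms4a3 at 35 bases after it. A C/EBP-type motif, TTNNGNAA, was in 1 of 5 windows (40.7% of all windows), a Myb-type motif, AACNG, in 4 of 5 (80.3%) and a Runx-type motif, TGTGGT, in 1 of 5 (16.8%). Matches of the 4 motifs were counted separately, and overlapping matches were allowed. These are matches of letters, and binding was not measured. Prtn3 and Elane are adjacent genes on chromosome 10, with start sites 6645 bases apart on the same strand.

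Read depth is unknown, since the deposited values are FPKM (fragments scaled by transcript length and by library size). Total FPKM was 677649 to 767866 in blood libraries, and 10478 to 11365 genes stood at 1 FPKM or more. Fibroblast markers summed to at most 33.2 FPKM in any blood library. The library labelled uncultured LT-HSC stood apart. It held 8 of 8 stem cell markers at 1 FPKM or more, as LT-HSC 2N and 4N did, among them Slamf1 at 34.6 FPKM. Unlike LT-HSC 2N and 4N, it held the primary granule genes at the level of MP. Fits that use it are given with and without it. In bulk RNA, fewer cells of a type and less RNA per cell cannot be told apart.

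Without induction, the primary granule genes were among the most abundant transcripts of MP. Prtn3 stood at 21209 FPKM in uncultured MP, 15215 in MP 2N and 13400.2 in MP 4N, and was the top-ranked gene of all 3 libraries. Mpo stood at 13224, 7849 and 8538 FPKM in the same order. Elane stood at 19235, 7339 and 5551 FPKM, and was the second gene by level in uncultured MP. Ctsg followed at 4362, 2709 and 1889 FPKM, and Ms4a3 was the lowest of the 5 at 1029.8, 1662 and 1239 FPKM. Together the 5 genes made up 7.75% of all FPKM in uncultured MP, 4.6% in MP 2N and 4% in MP 4N. The lowest MP library without induction was above the highest ST-HSC one for each of the 5 genes.

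ST-HSC came next in order, with the 5 genes at uneven levels. Prtn3 stood at 797 FPKM in uncultured ST-HSC, 2874 in 2N and 4277 in 4N, and Mpo at 765, 2109 and 4315. Ctsg stood at 19.6, 395 and 613 FPKM. Elane was lower, at 44.7, 88.1 and 137 FPKM, and Ms4a3 stood at 1.77, 183 and 313. Every member was lowest in the uncultured ST-HSC library and highest in 4N.

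LT-HSC after culture were lower again, and Prtn3 was their leading member. In the 2N and 4N libraries of LT-HSC it stood at 102 and 165 FPKM, Mpo at 16.8 and 10.7, Elane at 4.60 and 3.12, Ctsg at 1.50 and 1.49, and Ms4a3 was listed at 0 in both. The library labelled uncultured LT-HSC went against this order, with 16683 FPKM of Prtn3, 13554 of Elane, 7525 of Mpo, 3379 of Ctsg and 974 of Ms4a3. All 5 members were listed at 0 in fibroblasts, in uncultured cells and at 2D and 4D alike. A listed 0 can be a failed estimate. Gapdh and Rpl3, which every cell uses, were each listed at 0 in 2 of 18 libraries. Their highest values in any library were only 22.6 and 5.82 FPKM, so these 2 genes were listed low throughout. No fold against fibroblasts is therefore given.

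**Figure D1:**
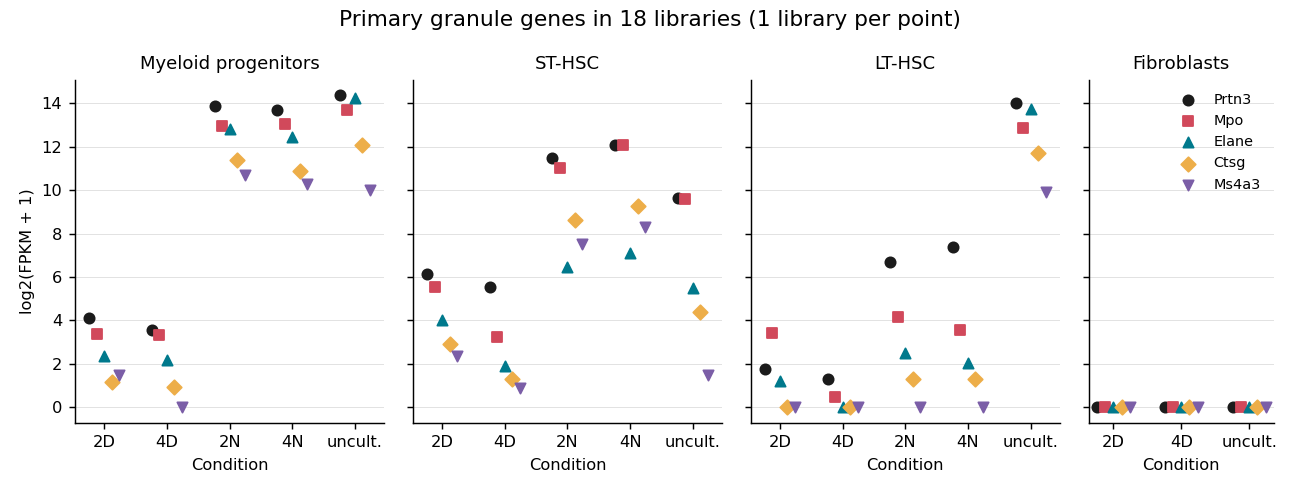
The y axis gives log2(FPKM + 1) of the 5 primary granule genes, 1 point per gene and library, in panels for MP, ST-HSC, LT-HSC and fibroblasts, with D, N and uncultured conditions from left to right. The D points of blood cells lie low in every panel, MP without induction lie highest, and the uncultured LT-HSC library lies with MP.

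The D libraries were compared with N libraries of the same cell type and day, to ask what inducing the 4 factors changed beyond culture. All 5 primary granule genes were lower in D, where 4.44% of the 12254 genes tested were called lower by limma at an adjusted p of 0.05. Their median log2 difference was -6.09, against 0.02 over all genes tested. Prtn3, Mpo and Ctsg held the 3 lowest differences of all genes.

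Prtn3 stood in D at 16.5 and 10.9 FPKM in MP (days 2 and 4), 70.5 and 45.9 in ST-HSC and 2.42 and 1.44 in LT-HSC, against 15215 and 13400.2 in MP, 2874 and 4277 in ST-HSC and 102 and 165 in LT-HSC of the N cultures. Every D library was below every N library, which held for 1 of the 5 members and for 2.12% of all genes tested. Prtn3 fell by 7.12 ± 0.709 on the log2 scale (SE; limma adjusted p = 0.0007773), and its 6 pairs had an SD of 2.26.

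Mpo stood in D at 9.51 and 8.91 FPKM in MP, 45.1 and 8.45 in ST-HSC and 9.67 and 0.387 in LT-HSC, against 7849 and 8538, 2109 and 4315, and 16.8 and 10.7 in N of the same cell types. It was lower in D in 6 of 6 pairs, although the ST-HSC 2D library was above both LT-HSC N libraries. Its fitted difference was -6.25 ± 1.16 (limma adjusted p = 0.01375).

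Elane stood in D at 4.19 and 3.50 FPKM in MP, 15.4 and 2.75 in ST-HSC and 1.28 and 0 in LT-HSC, against 7339 and 5551, 88.1 and 137, and 4.60 and 3.12 in N. All 6 pairs were lower in D, with the widest gap in MP, and the ST-HSC 2D library was above both LT-HSC N libraries. The fitted difference was -5.29 ± 1.29 (limma adjusted p = 0.0368).

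Ctsg stood in D at 1.23 and 0.891 FPKM in MP, 6.43 and 1.45 in ST-HSC and 0 in both LT-HSC libraries, against 2709 and 1889, 395 and 613, and 1.50 and 1.49 in N. It was lower in D in 6 of 6 pairs, with ST-HSC 2D again above LT-HSC N, and fell by 6.09 ± 1.26 on the log2 scale (limma adjusted p = 0.02033).

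Ms4a3 stood in D at 1.78 and 0 FPKM in MP and 4.17 and 0.873 in ST-HSC, against 1662 and 1239, and 183 and 313 in N, and was listed at 0 in all 4 cultured LT-HSC libraries. It was therefore lower in D in 4 of 6 pairs. Its fitted difference was -5.34 ± 1.40 (limma adjusted p = 0.04797).

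Flipping the signs of the 6 paired differences (exact test, two-sided) gave p = 0.0312, the smallest possible here, for Mpo, Elane, Prtn3 and Ctsg, and p = 0.125 for Ms4a3. Prtn3 was the 1 member that stayed under the threshold with each pair left out in turn; without MP day 2 the others had limma adjusted p of 0.05418 (Mpo), 0.08923 (Elane), 0.05914 (Ctsg) and 0.1305 (Ms4a3). Without MP day 4 the calls of Elane, Ctsg and Ms4a3 were lost (limma adjusted p = 0.09183, 0.05849 and 0.1237), without ST-HSC day 4 those of Elane and Ms4a3 (0.06594 and 0.0948), and without ST-HSC day 2 that of Ms4a3 (0.0904).

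**Figure D2:**
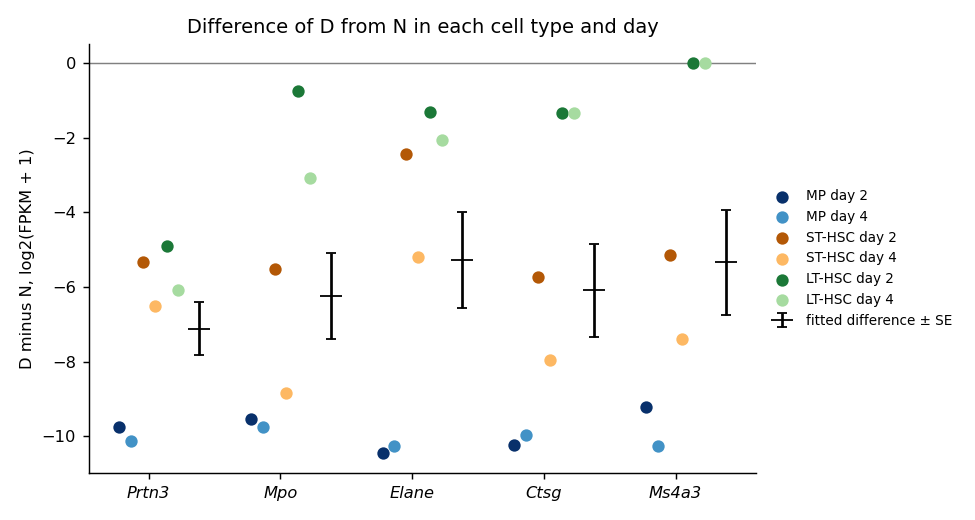
The y axis gives the difference of D from N in log2(FPKM + 1) for each primary granule gene, with 1 coloured point per pair of cell type and day and a black bar for the fitted difference ± SE. MP points lie between -9.23 and -10.47, while LT-HSC points of Mpo, Elane and Ctsg lie at -3.08 or above and those of Ms4a3 at 0.

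The size of the fall was read by cell type next. In MP the D minus N differences of the 5 members ran from -9.23 (Ms4a3, day 2) to -10.47 (Elane, day 2). In ST-HSC they ran from -2.44 (Elane, day 2) to -8.84 (Mpo, day 4), and in LT-HSC from 0 (Ms4a3) to -6.09 (Prtn3, day 4). The gap between MP and the stem cells was tested as an interaction, and 0 of 5 members passed, as did 0% of the 12254 genes (1018 had an unadjusted limma p under 0.05). Prtn3 and Elane had the first and second smallest p-values of all genes, with a difference of -4.24 ± 0.50 for Prtn3 and -7.62 ± 0.996 for Elane (limma adjusted p = 0.2073 for both). Without the ST-HSC day 4 pair Elane passed (-8.44, limma adjusted p = 0.01449). A starting level near 0, as in LT-HSC, limits how far a gene can fall on this scale.

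The day of culture was tested next. The D minus N difference at day 4 less that at day 2 was -1.96 ± 2.38 for Mpo, -1.11 ± 2.72 for Elane, -0.91 ± 1.47 for Prtn3, -0.65 ± 2.67 for Ctsg and -1.10 ± 2.95 for Ms4a3. None of the 5 passed (limma adjusted p from 0.9888 to 0.9932), and 0% of the 12254 genes did (511 had an unadjusted p under 0.05). The standard errors were larger than the differences, so a change of this size between days was not detectable.

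Set against uncultured cells, D cultures were also lower in 5 of 5 members, where 6.17% of 12539 genes were called lower. Uncultured levels were those given above, between 1.77 FPKM (Ms4a3 in ST-HSC) and 21209 (Prtn3 in MP). The log2 differences were -9.21 ± 1.61 for Elane, -8.93 ± 1.24 for Prtn3, -8.82 ± 1.06 for Mpo, -8.35 ± 1.47 for Ctsg and -6.34 ± 1.59 for Ms4a3, with limma adjusted p of 0.007569, 0.003053, 0.001541, 0.007617 and 0.02835. Without the uncultured LT-HSC library 2 members kept their calls, Mpo at -7.77 (limma adjusted p = 0.01701) and Prtn3 at -7.15 (0.02319), while Elane stood at -7.25 (0.06302), Ctsg at -6.66 (0.05613) and Ms4a3 at -4.55 (0.1682). Without the 3 MP libraries it was again Mpo and Prtn3 that passed. The comparison shares its D libraries with that of D and N, so the 2 are not independent.

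Culture without induction, N against uncultured, had no single direction in these genes. In ST-HSC, the mean of 2N and 4N less uncultured was 1.98 for Mpo, 1.28 for Elane, 2.14 for Prtn3, 4.58 for Ctsg and 6.44 for Ms4a3 on the log2 scale, all higher after culture. In MP it was -0.69, -1.59, -0.57 and -0.95 for the first 4 and 0.48 for Ms4a3. In LT-HSC it ran from -7.00 for Prtn3 to -11.46 for Elane, all measured from the library that stood apart. Over the 3 cell types 0 of 5 members passed, where 8.89% of 12060 genes did and 3254 had an unadjusted limma p under 0.05. The fitted differences were -3.93 ± 2.21 for Elane (limma adjusted p = 0.3109), -2.58 for Mpo, -2.26 for Ctsg, -1.81 for Prtn3 and -1.004 for Ms4a3. Without the uncultured LT-HSC library they were -0.16 for Elane, 0.64 for Mpo, 1.82 for Ctsg, 0.78 for Prtn3 and 3.46 for Ms4a3, so the sign turned in all but Elane, and none passed (limma adjusted p from 0.1129 to 0.8965).

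Whether the change with culture differed between MP and the stem cells was tested too. The differences were 1.86 to 3.50 and 0 of 5 members passed (limma adjusted p from 0.8524 to 0.9429), as did 0% of 12060 genes, with 1312 at an unadjusted p under 0.05. Without the uncultured LT-HSC library the direction turned. Ctsg then stood at -5.53 and Ms4a3 at -5.96 in MP relative to ST-HSC, and at the same values with all LT-HSC libraries left out. Leaving out the ST-HSC libraries leaves MP against LT-HSC, where the differences went the other way. They were 8.33 for Mpo, 9.87 for Elane, 6.425 for Prtn3, 9.46 for Ctsg and 10.41 for Ms4a3, all measured from the uncultured LT-HSC library that stood apart. In these fits each uncultured level is 1 library, so their spread comes from the N libraries alone and only differences are given.

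MP were then set against both stem cell types without induction. Elane, at 19235, 7339 and 5551 FPKM in MP, against 44.7, 88.1 and 137 in ST-HSC and 13554, 4.60 and 3.12 in LT-HSC (uncultured, 2N, 4N), had the widest positive difference of all 12060 genes, 6.95 ± 2.16. It did not pass (limma adjusted p = 0.2856), nor did Ms4a3 (5.79 ± 2.80), Ctsg (5.36 ± 2.60), Mpo (4.35 ± 2.31) or Prtn3 (3.78 ± 1.62). So 0 of 5 members were called, where 0.0249% of genes were called higher and 1497 genes had an unadjusted limma p under 0.05. Without the uncultured LT-HSC library Elane stood at 8.28 and passed (limma adjusted p = 0.0461), as the 1 member that did.

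In D the order was another. Prtn3 was at 16.5 and 10.9 FPKM in MP, below 70.5 and 45.9 in ST-HSC and above 2.42 and 1.44 in LT-HSC. MP less stem cells lay between -0.08 ± 0.914 (Ms4a3) and 0.49 ± 1.01 (Elane), and 0 of 5 members passed (limma adjusted p from 0.9143 to 0.9992). The same was true of 0% of 12089 genes, with 1087 at an unadjusted p under 0.05. ST-HSC were the highest of the 3 cell types in D for every member at day 2. At day 4 the same held for Prtn3, Ctsg and Ms4a3, while Mpo (8.91 FPKM in MP, 8.45 in ST-HSC) and Elane (3.50 in MP, 2.75 in ST-HSC) were slightly higher in MP.

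ST-HSC were also compared with LT-HSC over all 5 conditions. Mpo was higher in ST-HSC by 3.40 ± 1.45 and Prtn3 by 2.75 ± 1.25, with Ctsg at 2.42 ± 1.93, Ms4a3 at 2.13 ± 2.11 and Elane at 1.12 ± 1.68. None passed (limma adjusted p = 0.7582 for Mpo), as for 0% of 12419 genes, with 811 at an unadjusted p under 0.05. Without the uncultured LT-HSC library Prtn3 stood at 4.54 and was the 1 gene of all tested that passed (limma adjusted p = 0.00145).

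The proportions of the 5 transcripts to each other were read next. Elane per unit of Prtn3, a ratio of FPKM and so per length, was 0.907, 0.482 and 0.414 in MP (uncultured, 2N, 4N), against 0.0561, 0.0306 and 0.0320 in ST-HSC. The 2 groups were far apart, by 3.90 on the log2 scale (MP -0.82 ± 0.599, ST-HSC -4.72 ± 0.486; SD, n = 3 each; exact two-sided permutation p = 0.1, the smallest that 3 against 3 can give). Mpo per Prtn3 went the other way and by less, with MP lower by 0.60 (exact p = 0.1). Ctsg and Ms4a3 per Prtn3 differed by 1.14 and 1.86, with overlap (exact p = 0.2 and 0.4). The uncultured LT-HSC library had 0.812 of Elane and 0.203 of Ctsg per Prtn3, against 0.907 and 0.206 in uncultured MP.

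**Figure D3:**
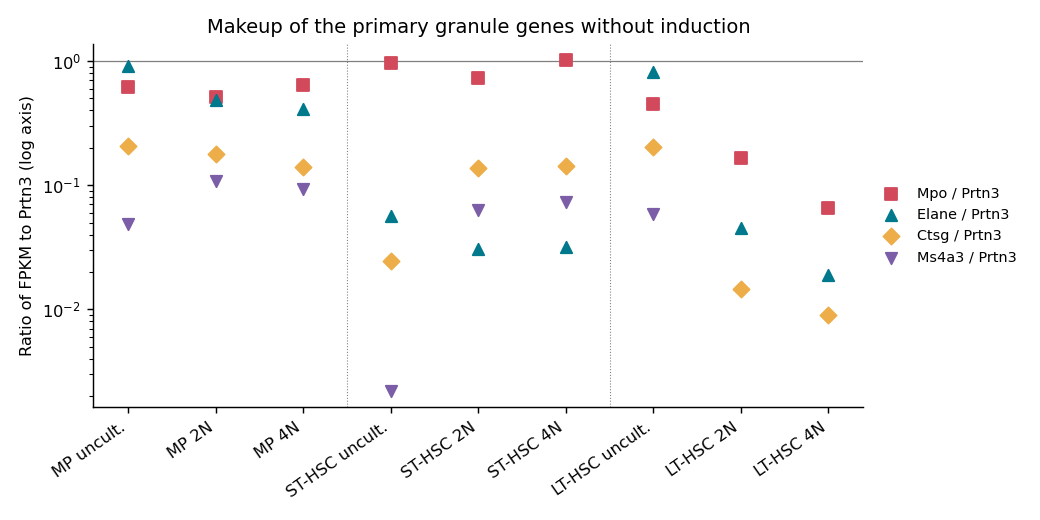
The y axis (log scale) gives the FPKM of Mpo, Elane, Ctsg and Ms4a3 divided by that of Prtn3 in the 9 libraries without induction, 1 point per gene and library, and Ms4a3 is not drawn in LT-HSC 2N and 4N, where it was listed at 0. Elane per Prtn3 lies at 0.414 to 0.907 in MP and at 0.0306 to 0.0561 in ST-HSC.

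The genes around the members were read next. Plppr3 (named BC005764 in the table), a phosphatase-related membrane protein of neurons that lies next to Prtn3, stood at 9.61 and 4.66 FPKM in MP D, against 83.9 and 54.3 in MP N. It fell by 3.08 ± 0.356 on the log2 scale (limma adjusted p = 0.001216). Ptbp1 and Med16, which lie farther out on either side, did not pass (-0.35, limma adjusted p = 0.3061, and -0.28, 0.4942). Cfd, between Elane and Med16, was at 1.39 FPKM in MP 2N and listed at 0 in all other blood libraries. Tspoap1 (Bzrap1), beside Mpo, stood at 1.29 and 0 FPKM in MP D, against 68.7 and 34.8 in MP N, and did not pass (-2.70, limma adjusted p = 0.05633). Mcpt8, a basophil protease beside Ctsg, was listed at 0 in every D library and at 469, 59, 91.1 and 87.3 FPKM in MP 2N, ST-HSC 2N, MP 4N and ST-HSC 4N. In a list of paralogs and neighbours that did not hold Plppr3, it was the 1 called lower of 11 tested. Over all genes tested, 4.44% were called lower. The table does not say whether counting used strand, so reads of overlapping genes cannot be told apart.

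Genes whose products process, package or accompany granule contents moved with the members in part. Of 15 in the list, 13 were tested for D against N, 9 fell and 0 rose, with a median of -3.93. The share called lower among all genes tested, 4.44%, belongs beside this count and those of the lists below. Cst7 (cystatin F, which controls the proteases that activate granule enzymes) fell by 5.71 and Nkg7, a granule membrane protein of killer cells and myeloid cells, by 5.63. Lysozyme (Lyz2) fell by 5.32 and Plac8, a small protein of myeloid cells, by 4.95. Ctsc, the protease that activates elastase, proteinase 3 and cathepsin G, fell by 1.63 ± 0.436 (limma adjusted p = 0.04614), and Prss57, a further neutrophil serine protease (Prssl1 in the table), fell by 3.93 ± 0.595 (0.004121); these 2 were chosen after their values were seen. Ctsc stood at 47.5 and 30.5 FPKM in MP D, against 174 and 486 in MP N, so its fall in D left it well above 1 FPKM. Relative to uncultured cells, Ctsc was higher in N by 1.77 (limma adjusted p = 0.03331).

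Among 12 inhibitors of such proteases, 7 were tested, 3 fell in D and 0 rose (median -2.88). Serpinb1a, a cytosolic inhibitor of elastase, proteinase 3 and cathepsin G, stood at 56.7 and 7.02 FPKM in MP D, against 263 and 275 in MP N, and fell by 2.88 ± 0.415 (limma adjusted p = 0.003263). Serpina3g fell by 4.66, and Serpina3f was listed at 0 in every D library.

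Of 16 transcriptional regulators, 15 were tested, 5 fell and 0 rose, with a median of -1.06. Spi1, the gene of PU.1 (Sfpi1 in the table), stood at 75.7 and 0 FPKM in MP D, 183 and 95.8 in ST-HSC D and 11.9 and 0 in LT-HSC D, against 548 and 940, 235 and 514, and 167 and 259 in N. The highest D library was above the lowest N library, and Spi1 fell by 4.54 ± 1.13 (limma adjusted p = 0.03949). Irf8, which favours monocytes over neutrophils, fell by 3.60, Myb fell by 3.31 and Runx1 fell by 1.65 (limma adjusted p = 0.01963, 0.000422 and 0.03304).

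Several regulators that are central to granulocytes did not pass. Cebpa, needed to form granulocyte precursors, stood at -2.09 (limma adjusted p = 0.08009). Cebpe, which drives the later granule stage, was listed at 0 in every D library and at 163 and 34.2 FPKM in MP 2N and 4N (adjusted p = 0.09664). Gfi1, needed for neutrophil maturation, stood at 7.59 and 4.35 FPKM in MP D, against 172 and 94.7 in MP N, but at 4.14 and 6.36 in LT-HSC D, against 0 and 0 in LT-HSC N, with a fitted difference of -0.86 (limma adjusted p = 0.6463). These 3 were named after their values were seen.

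Of 11 cytokine receptors, all tested, 4 fell in D and 0 rose (median -2.08). The shared chain of the GM-CSF, IL-3 and IL-5 receptors, Csf2rb, fell by 4.20, its mouse relative Csf2rb2 by 3.60, the G-CSF receptor Csf3r by 3.42 ± 0.444 (limma adjusted p = 0.002017) and the M-CSF receptor Csf1r by 3.09. Csf3r was listed at 0 in 5 of 6 D libraries and at 1.18 FPKM in ST-HSC 4D, against 3.75 to 21.8 FPKM in N.

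**Figure D4:**
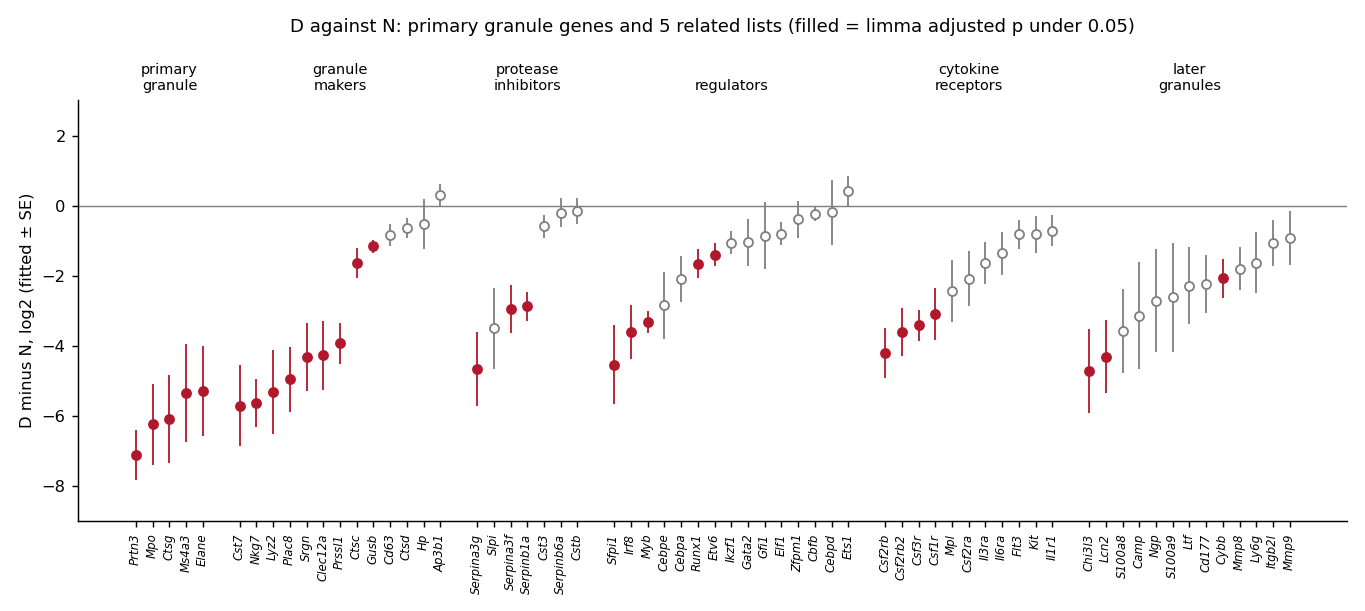
The y axis gives the fitted log2 difference of D from N with its SE for the tested genes of 6 groups, sorted within each group, and filled points passed a limma adjusted p of 0.05. All 5 primary granule genes lie at -5.29 or lower, and filled points of the other groups are all below 0.

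Later granule genes, which neutrophil precursors use after the primary ones, followed the primary genes in some libraries and not in others. Of 14, 13 were tested for D against N, 3 fell and 0 rose (median -2.28), namely Chi3l3 (4.71 lower), Lcn2 (4.31 lower) and Cybb (2.08 lower), a lectin, a siderophore-binding protein and an oxidase subunit. The uncultured LT-HSC library held the highest sum of later genes of any library, 10530 FPKM, with 9 of 14 at 1 FPKM or more. Uncultured MP held 6828 FPKM of them. In the LT-HSC 2N library the later genes summed to 5261 FPKM with 12 of 14 at 1 FPKM or more, while the 5 primary genes summed to 125. LT-HSC 4N had the reverse order, 6.59 FPKM of later genes, with 3 of 14 at 1 FPKM or more, and 181 of primary genes. Camp, the cathelicidin of secondary granules, stood at 1266 FPKM in LT-HSC 2N, Ltf (lactoferrin) at 228 and the neutrophil surface marker Ly6g at 72.6. Elane stood at 4.60 FPKM in the same LT-HSC 2N library. In ST-HSC 2N the sums were the other way round, 51 FPKM of later genes and 5649 of primary genes. In MP 2N both were high, at 6945 and 34774 FPKM.

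**Figure D5:**
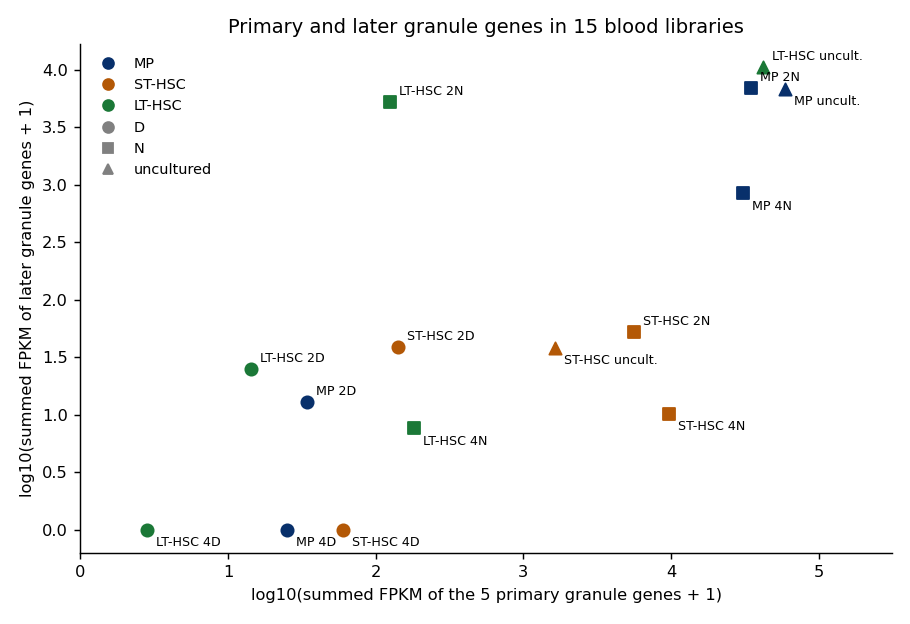
The x axis gives log10 of the summed FPKM of the 5 primary granule genes plus 1, and the y axis the same for 14 later granule genes, with 1 point per blood library, coloured by cell type and shaped by condition. The LT-HSC 2N library lies high on the y axis and low on the x axis, the ST-HSC 2N and 4N libraries lie the other way, and the 4D libraries lie at 0 on the y axis.

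Summed markers of other cell types were also compared between D and N libraries of blood cells, to which the ranges below are limited. The 6 mature neutrophil markers summed to 0 to 21.4 FPKM in D libraries, 2.1 to 4610 in N and 2.33 to 1450 in uncultured cells, with Cxcr2 listed at 0 throughout. The 6 mast cell and basophil markers were all listed at 0 in D and summed to 0 to 1690 FPKM in N, reaching that in MP 4N. The 7 monocyte and macrophage markers summed to 0.00187 to 16.6 FPKM in D and 1.27 to 281 in N. Each of these sums overlapped between D and N. Called lower were 0 of 5 tested neutrophil markers, 1 of 6 mast cell and basophil markers and 2 of 5 monocyte and macrophage markers. The 6 megakaryocyte markers summed to 0 to 8.12 FPKM in D and 14.4 to 540 in N, and these sums did not overlap. Single markers did overlap, as with Pf4 at 8.12 FPKM in ST-HSC 2D and 0 in MP 2N. Of the 5 tested, 1 was called lower, where 4.44% of all genes tested were. The 8 stem cell markers went the other way, at 47.5 to 1080.0 FPKM in D and 24.2 to 219 in N, with overlap, and 2 of them rose in D, Ly6a by 3.57 and Mecom by 2.48. Of all 12254 genes tested, 555 were called higher. Of the eosinophil, erythroid, lymphoid and fibroblast markers, none summed to more than 33.2 FPKM in a D library of blood cells or 94.2 in an N library. The part of these markers in the falls of the primary granule genes was not tested.

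Across the 15 blood libraries the members tracked each other, with Pearson correlations of log2(FPKM + 1) from 0.914 (Prtn3 and Ms4a3) to 0.985 (Ctsg and Ms4a3). These points share cell type, culture and library method. Among 7322 genes with a mean of at least 10 FPKM, the 10 most like the members' mean were Anxa3 (r = 0.975), Clec12a (0.97), B4galnt1 (0.967), Rab44 (0.963), Ffar2 and Atp8b4 (0.96 each), Bzrap1 and Igsf6 (0.955 each), Sema4a (0.951) and Hk3 (0.945). Anxa3, a calcium-dependent membrane-binding protein, stood at 584 and 431 FPKM in MP 2N and 4N and at 0.820 or less in every D blood library, but also at 78.5 FPKM in uncultured fibroblasts. Clec12a is an inhibitory lectin of myeloid cells, Rab44 a granule-associated small GTPase and Hk3 the hexokinase of myeloid cells. For single members, the gene most alike was Ctsg for Mpo (0.975), Igsf6 for Elane (0.977), Mpo for Prtn3 (0.964), Ms4a3 for Ctsg (0.985) and Anxa3 for Ms4a3 (0.986). Of the 10, 2 were also among the first 10 by Spearman's rho, and 6 when the 9 libraries without induction were used alone.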

How the data were processed

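Gene expression was measured by RNA sequencing in 18 mouse libraries. The authors deposited 1 FPKM value per gene and library, made with TopHat and Cufflinks on mm9 per the submitters' processing notes. The version of each program was not given in the sources used here, nor was the annotation. No header names the unit, which was read as FPKM from the values and the use of Cufflinks. Low FPKM values were not whole multiples of a step (at most 2.62% of ratios between libraries fell in 1 bin of 0.02 log2), so depth is unknown and no intervals or limits based on it are given.

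Symbols on several entries (158) were summed. Values were analysed as log2(FPKM + 1), so differences of genes near 0 depend on the added 1. Each fit took genes averaging at least 1 FPKM across its libraries, and tested them two-sided with limma 3.58.1 (trend and robust options) in R 4.3.3, with adjustment by Benjamini-Hochberg over all genes tested, at a threshold of 0.05, with pair, cell type or condition as block. All 5 members passed the filter in the fits of the report, though not in every alternative. Exact tests were used for single values. The members, lists and tests were chosen with earlier results of these data known. Other named genes were those past the threshold with the largest change, at most 4 per list, and the 10 most alike by Pearson correlation. Of 148 list names all were found, Prss57 and Spi1 by Ensembl ID. Promoters and neighbours are from RefSeq (GRCm38.p6), another build than that of the FPKM values, and were used for sequence and gene order only. Alternatives were added values of 0.1 and 5, no filter, another scaling, no block terms, each block left out and, chosen after seeing the data, the uncultured LT-HSC library left out. Python 3.11.15, pandas 2.3.3, numpy 2.4.6 and matplotlib 3.10.9 were used.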

Additional observations from a re-analysis of the deposited data

Results flagged for a closer look

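The change with culture, N less uncultured on the log2 scale, went opposite ways in different cell types for every primary granule gene, with both N libraries of a cell type on the same side. In ST-HSC relative to LT-HSC it was higher by 11.001 for Mpo, 12.74 for Elane, 9.13 for Prtn3, 14.98 for Ctsg and 16.37 for Ms4a3. In MP relative to LT-HSC it was higher by 10.41 for Ms4a3. These differences rest on the library labelled uncultured LT-HSC, which held stem cell markers together with granule genes at the level of MP, and those of ST-HSC against LT-HSC were not tested. That of Ms4a3 in MP against LT-HSC passed in the fit without ST-HSC (limma adjusted p = 0.03034). In MP relative to ST-HSC the change was -2.67 for Mpo, -2.87 for Elane, -2.71 for Prtn3 and -5.53 for Ctsg. This comparison does not use that library, and the fit without it tested it: Ctsg passed (limma adjusted p = 0.03483), and Mpo, Elane and Prtn3 did not. With all LT-HSC libraries left out Ctsg did not pass either (0.1689).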

How the results depend on the processing

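Of 433 recomputed values of single members, 365 kept their direction and side of the threshold, 26 lost and 8 gained a call, and 34 changed sign. For D against N, the count of members called was 3 with no filter on low values, 3 with no block terms and 1 to 5 with each pair left out, and Prtn3 was called in every one of these fits. With 0.1 added before the log Ms4a3 was not called (limma adjusted p = 0.07589), and with 5 added Elane was not (0.05861). For D against uncultured, 2 to 5 members were called with each cell type left out. Leaving out the uncultured LT-HSC library gave 2 members for D against uncultured. It gave 1 for MP against stem cells without induction and 1 for the 2 stem cell types. For the culture change in MP against stem cells all 5 members then changed sign. They stood at -5.53 (Ctsg), -5.96 (Ms4a3), -2.67 (Mpo), -2.87 (Elane) and -2.71 (Prtn3). Leaving out that library also turned the sign for N against uncultured, with no call, in Mpo (0.64), Prtn3 (0.78), Ctsg (1.82) and Ms4a3 (3.46). With a block left out, 0 to 1 members were called for ST-HSC against LT-HSC libraries and 0 to 1 for D less N in MP against stem cells. Genes most alike shared 2 of 10 by Spearman's rho and 6 of 10 over the 9 libraries without induction. The cause of these shifts was not tested.

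Other changes of sign were all in comparisons in which the report calls no member. For MP against stem cells in D, Ctsg stood at 1.03 with 0.1 added, and Mpo at -0.10 and Prtn3 at -0.16 with 5 added. With a day left out there, Mpo ran from -1.08 to 1.45 and Elane from -0.24 to 1.22, and Ms4a3 was 0.29. For day 4 against day 2, leaving out a pair gave -4.10 to 0.31 for Mpo, -3.97 to 1.11 for Elane, -2.46 to 0.37 for Prtn3, -3.20 to 1.57 for Ctsg and -4.04 to 1.30 for Ms4a3. For N against uncultured, leaving out a cell type gave -4.86 to 0.64 for Mpo, -3.78 to 0.78 for Prtn3, -5.68 to 1.82 for Ctsg and -4.73 to 3.46 for Ms4a3. For the culture change in MP against stem cells it gave -2.67 to 8.33 for Mpo, -2.87 to 9.87 for Elane, -2.71 to 6.43 for Prtn3, -5.53 to 9.46 for Ctsg and -5.96 to 10.41 for Ms4a3.

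Counts over all genes moved as well. For D against N (1099 genes) they ran from 529 to 1042 with a pair left out. For N against uncultured (1072) the count was 636 with no filter, 632 with no block terms, 268 without the uncultured LT-HSC library and 52 to 1194 with a cell type left out. For D against uncultured (1922) it was 512 without that library and 361 to 1207 with a cell type left out. For MP against stem cells without induction (33) it was 16 with 5 added, 12 with no filter, 8 with no block terms, 0 with any condition left out and 82 without that library. The culture change in MP against stem cells (0) gave 2 genes with 0.1 added and 20 with 5 added. Scaling libraries to a common median moved the median of all genes for N against uncultured to 0.05, against 0.17 unscaled, and changed no call of a member. Ctsg and Ms4a3 fell under the filter in the fit of MP against stem cells in D without 2D and have no value there. The pairs used are libraries of the same cell type and day; no library carries a replicate number. Unknown depth limits what values near 0 can show.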
